A study of Rattus norvegicus with 12 samples.

Results

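The 10 genes described here, B2m, Tap1, Tap2, Tapbp, Psmb8, Psmb9, Psmb10, Cd74, RT1-Da and RT1-Ba, load peptides onto MHC molecules or cut the peptides that are loaded. They were chosen by name, as all probes outside the control spots whose transcript accession maps to one of these symbols, which gave 17 probes of 61537 on the array and 10 genes of 15645 with a name. Total RNA of the renal cortex of male Sprague-Dawley (Crl:CD(SD)) rats, 5 weeks old when purchased, was measured on 1-colour Agilent arrays, with 1 array for each of 12 animals. Of the 4 groups of 3 animals, gavage water and gavage cisplatin (3.75 mg/kg/day) formed one experiment, and intravenous water and intravenous cisplatin (0.75 mg/kg/day) the other, each over 4 weeks. Cisplatin, a platinum compound used against tumours, binds DNA and is toxic to kidney tubules. Route, dose and experiment changed together, so an effect of route cannot be told apart from one of dose, and the protocol text common to all samples gives 3.75 mg/kg/day, while the label of each intravenous sample gives 0.75 mg/kg/day. All samples are whole cortex, in which fewer cells of a type and less RNA per cell cannot be told apart.

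In class I presentation, the proteasome cuts proteins in the cytosol into peptides, the transporter formed by Tap1 and Tap2 moves them into the endoplasmic reticulum, and tapasin (Tapbp) holds the transporter against an empty class I molecule, whose light chain is B2m. Under interferon-gamma the proteasome's catalytic subunits Psmb5, Psmb6 and Psmb7 are replaced by Psmb8, Psmb9 and Psmb10, which gives the immunoproteasome. Class II presentation is separate: the chains encoded by RT1-Da (the rat counterpart of HLA-DRA) and RT1-Ba (that of HLA-DQA) assemble on the invariant chain Cd74, mostly in dendritic cells, macrophages and B cells, while class I is made by nearly all cells, kidney tubules included.

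Several members are neighbours in the rat MHC. RefSeq places Tap2, Psmb8, Tap1 and Psmb9 next to each other on chromosome 20, where RT1-Da, RT1-Ba and Tapbp also lie, while B2m is on chromosome 3, Psmb10 on 19 and Cd74 on 18. Promoter sequences of RefSeq's GRCr8 assembly, from 250 bases before to 50 bases after the annotated start, were available for 10 of the 10 members. They are shown for Psmb10, Psmb8, Tap1, Tapbp, B2m and RT1-Da alone. The display leaves out Psmb9, which rose in both experiments though its window lacks the interferon motif marked below. It also leaves out Cd74, which was lower after gavage and lacks that motif, Tap2, which rose and holds it, and RT1-Ba. Each sequence runs 5′ to 3′ on the strand of the gene and ends 30 bases after the start. In Psmb10 (chr19:50743263-50743542, minus strand), Psmb8 (chr20:4657002-4657281, minus), Tap1 (chr20:4668514-4668793, minus), Tapbp (chr20:4967848-4968127, minus) and B2m (chr3:129549080-129549359, plus), capitals mark the core of the interferon-stimulated response element (GAAA, any 2 bases and GAAA again, here on either strand), and Tapbp holds 2 overlapping copies. In RT1-Da (chr20:4515165-4515444, plus), which has no such core, capitals mark the Y box, ATTGG, an inverted CCAAT.
Psmb10: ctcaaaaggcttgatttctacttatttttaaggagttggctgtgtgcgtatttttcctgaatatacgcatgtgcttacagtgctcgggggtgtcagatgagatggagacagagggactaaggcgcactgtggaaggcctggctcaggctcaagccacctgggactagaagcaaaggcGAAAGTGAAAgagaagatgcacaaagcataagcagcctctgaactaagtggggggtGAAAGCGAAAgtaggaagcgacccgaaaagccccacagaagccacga
Psmb8: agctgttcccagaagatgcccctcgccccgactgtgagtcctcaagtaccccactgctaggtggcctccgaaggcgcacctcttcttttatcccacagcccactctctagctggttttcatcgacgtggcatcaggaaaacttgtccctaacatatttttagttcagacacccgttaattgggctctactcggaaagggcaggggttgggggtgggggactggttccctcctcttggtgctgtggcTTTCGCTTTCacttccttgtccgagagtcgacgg
Tap1: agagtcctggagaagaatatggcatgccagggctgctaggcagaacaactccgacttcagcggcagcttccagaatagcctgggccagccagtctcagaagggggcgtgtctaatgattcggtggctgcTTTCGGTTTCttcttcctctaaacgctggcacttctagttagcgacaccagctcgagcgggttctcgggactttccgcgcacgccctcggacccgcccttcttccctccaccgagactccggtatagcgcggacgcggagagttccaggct
Tapbp: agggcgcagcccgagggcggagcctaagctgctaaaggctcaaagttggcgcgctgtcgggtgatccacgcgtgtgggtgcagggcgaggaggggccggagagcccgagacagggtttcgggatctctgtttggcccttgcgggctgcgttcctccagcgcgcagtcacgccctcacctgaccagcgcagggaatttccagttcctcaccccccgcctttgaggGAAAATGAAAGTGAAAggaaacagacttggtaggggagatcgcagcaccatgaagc
B2m: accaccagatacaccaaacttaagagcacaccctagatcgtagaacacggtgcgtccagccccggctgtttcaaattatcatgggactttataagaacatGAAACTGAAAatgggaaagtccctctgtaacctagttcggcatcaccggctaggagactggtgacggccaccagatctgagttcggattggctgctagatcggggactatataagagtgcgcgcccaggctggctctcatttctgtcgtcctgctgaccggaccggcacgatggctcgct
RT1-Da: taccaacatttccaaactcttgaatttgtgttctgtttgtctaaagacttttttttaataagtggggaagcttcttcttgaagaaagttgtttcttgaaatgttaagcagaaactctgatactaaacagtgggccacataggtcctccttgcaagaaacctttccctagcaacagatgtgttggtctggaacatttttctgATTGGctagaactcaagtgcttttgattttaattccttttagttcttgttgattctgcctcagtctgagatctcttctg

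The interferon-stimulated core was found in the 300-base windows of 6 of the 7 class I and immunoproteasome members, the exception being Psmb9, and in 0 of the 3 class II members. Over all 33469 promoter windows of that length, 3.92% held it on either strand. The core began 73 and 17 bases before the start in Psmb10, 121 bases before it in Tap1, 150 before it in B2m and 4 before it in Psmb8. The Y box was in 3 of the 3 class II members and 3 of the 7 others, against 37.5% of all windows. A gamma-activated site, TTCNNNGAA, was in Psmb8 alone among the members, with 8.87% of all windows holding one. The 9-letter kappa B pattern GGGANTTCC was in 2 of the 3 class II members, Cd74 and RT1-Ba, in 0 of the 7 others and in 1.64% of all windows. Only this spelling was searched, so its absence does not show that a window lacks a kappa B site. The printed windows of Tap1 and Tapbp, for example, hold the longer GGGACTTTCC and GGGAATTTCC, which it does not match. None of these 4 motifs overlapped another in the members' windows. Tap1 and Psmb9 are transcribed away from each other from starts 457 bases apart, and their windows share 44 bases. These are matches of letters in a window and were not tested as binding sites.

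**Figure D1:**
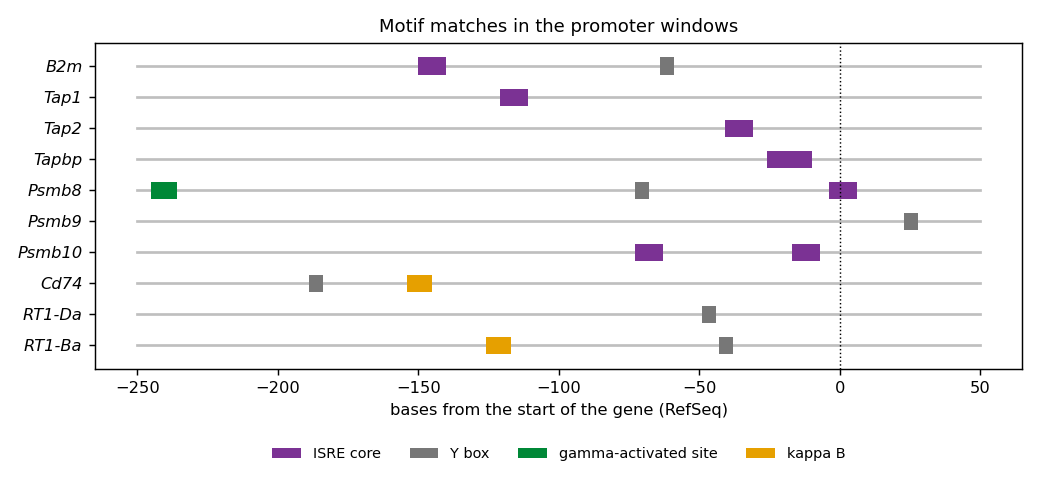
Positions of motif matches in the promoter windows of the 10 members, in bases from the start of the gene (dotted line, RefSeq); each grey line is 1 window and each coloured block 1 match on either strand. The interferon-stimulated core (ISRE core) lies in 6 of 7 class I and immunoproteasome members, and the Y box in all 3 class II members.

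Levels below are log2 of the processed spot intensity relative to the 75th percentile of the same array, so that 0 is the level of a probe at that percentile; they compare groups for 1 probe and do not rank probes against each other. The 75th percentile was 969.7 to 1054.8 intensity units on the water arrays and 1387 to 1532 on the cisplatin arrays, 66.1% to 73.9% of probes stood well above background on an array, and no spot was saturated. Markers of proximal tubule, distal nephron, podocytes and endothelium were well above background on every water array (7 of 7, 6 of 6, 5 of 5 and 6 of 6 genes). Of the 10 members, 9 could be tested. The single RT1-Ba probe was not well above background on any of the 12 arrays, and no fold is given for it. The number of arrays limits the precision of every difference. Cisplatin groups differed widely from water: of 34444 features tested (named genes and unnamed probes), 29.5% passed the test as higher and 29.8% as lower with gavage cisplatin, and 26.4% and 32% with intravenous cisplatin (limma, adjusted p under 0.05). Of the features called, 49.8% and 45.1% were higher; with normexp background correction these shares were 38.9% and 37.7%, and with scaling to the spike-in probes 86.7% and 85.3%. Against those shares, 6 of 9 members were higher and 1 was lower with gavage cisplatin, and 7 were higher and 0 lower with intravenous cisplatin. The members' median difference was 1.16 and 1.17 on the log2 scale, and that of all features 0.01 and -0.06. Every array of the cisplatin group lay above every array of its water group for 6 members after gavage (33.2% of all features) and for 7 after intravenous injection (29.7%), and every one lay below for 2 members after gavage (33.7%) and 0 after injection (36.3%).

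**Figure D2:**
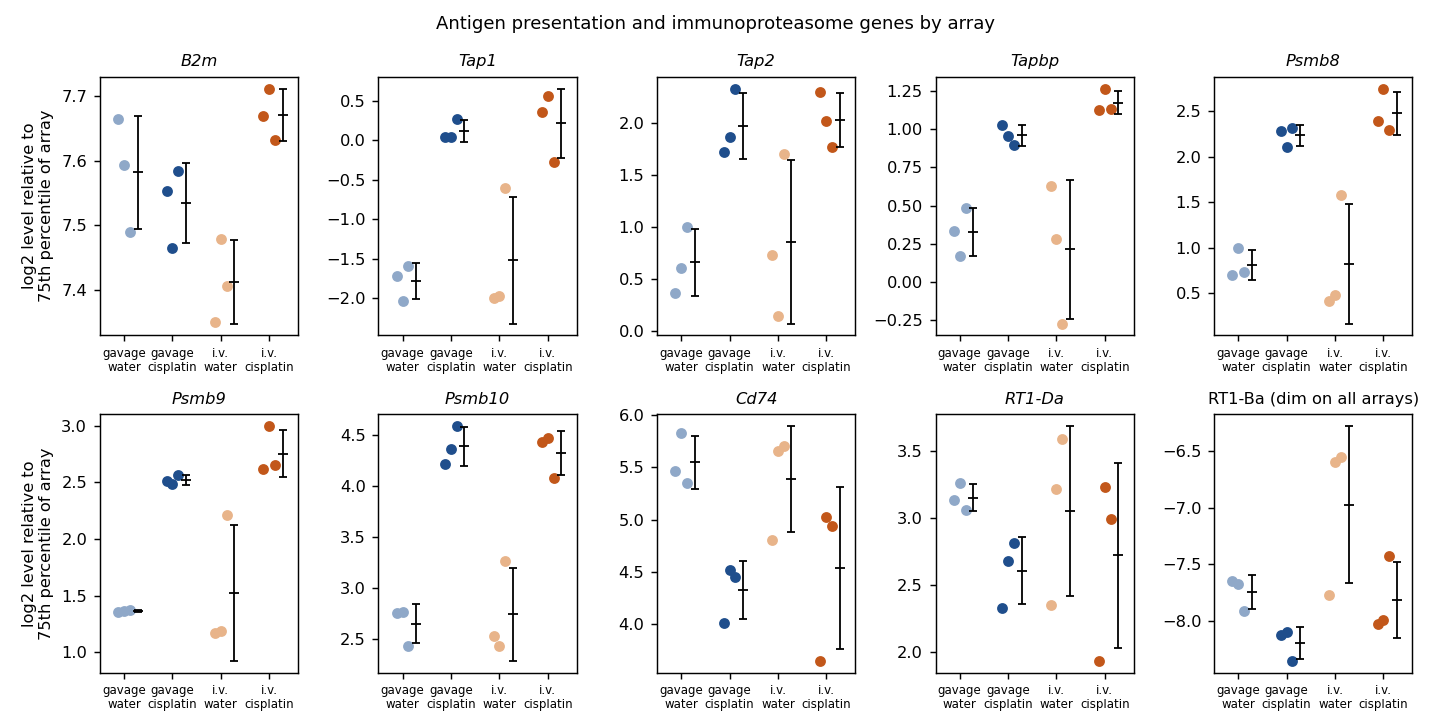
Level of each member by array, as log2 relative to the 75th percentile of the array, in 4 groups of 3 arrays (points, replicates 1 to 3 from left to right; bar, mean ± SD); each panel has its own axis. In the Tap, Tapbp and Psmb panels every cisplatin array lies above the water arrays of its experiment, with intravenous water replicate 3 high among the water arrays in Tap1, Tap2, Psmb8, Psmb9 and Psmb10; no array had RT1-Ba well above background.

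The 3 immunoproteasome subunits rose in both experiments, by 2.23 to 3.34-fold with gavage cisplatin and by 2.35 to 3.15-fold with intravenous cisplatin, while the 3 constitutive subunits they replace did not pass the test at this scaling. Psmb8, the chymotrypsin-like immunosubunit that takes the place of Psmb5, read 0.70, 1.00 and 0.73 with gavage water and 2.28, 2.11 and 2.32 with gavage cisplatin. It read 0.41, 0.48 and 1.58 with intravenous water and 2.39, 2.75 and 2.29 with intravenous cisplatin. In each experiment the lowest cisplatin array lay above the highest water array, though the third intravenous water animal lay well above the other water animals. Psmb8 rose by 1.43 ± 0.27 (log2, SE; limma adjusted p = 0.00117) and 1.65 ± 0.27 (adjusted p = 5.68e-04).

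Psmb9, which takes the place of Psmb6, was the most even member among the gavage animals, at 1.35, 1.36 and 1.37 with water and 2.51, 2.49 and 2.57 with cisplatin. Its intravenous values were 1.17, 1.18 and 2.21 with water and 2.61, 2.99 and 2.65 with cisplatin. Again the groups did not overlap, and again intravenous water replicate 3 was the highest water array. The rise was 1.16 ± 0.24 after gavage (limma adjusted p = 0.00198) and 1.23 ± 0.24 after injection (adjusted p = 0.00156).

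Psmb10, the third inducible subunit and the only one encoded outside the MHC, was at 2.76, 2.77 and 2.44 with gavage water and 4.22, 4.37 and 4.59 with gavage cisplatin. With intravenous water it was at 2.53, 2.43 and 3.27, and with intravenous cisplatin at 4.43, 4.47 and 4.08. Its rise of 1.74 ± 0.22 after gavage (3.34-fold, limma adjusted p = 7.95e-05) and 1.58 ± 0.22 after injection (3.00-fold, adjusted p = 1.94e-04) had the smallest p among the members in each experiment. Psmb10 thus passed in both experiments like the 2 subunits encoded inside the MHC.

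The constitutive partners moved little on this scale. The gavage and intravenous differences were -0.10 ± 0.10 and 0.05 ± 0.10 for Psmb5, 0.11 ± 0.09 and 0.13 ± 0.09 for Psmb6, and -0.11 ± 0.08 and -0.02 ± 0.08 for Psmb7, with limma adjusted p from 0.243 to 0.869. Their calls depend on the scaling. Psmb6 passed as higher after gavage with normexp background correction (0.22), Psmb6 after gavage (0.30) and Psmb5 and Psmb6 after injection (0.27 and 0.29) with quantile normalization. Scaled to the spike-in probes, which moved the median of all features to 0.66 (gavage) and 0.50 (intravenous), all 3 passed as higher in both experiments, by 0.55 to 0.77 and 0.55 to 0.69; the immunosubunits were then higher by 1.81 to 2.39 and 1.79 to 2.22. Under the main and the spike-in scaling each immunosubunit differed by more than each constitutive subunit.

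Both subunits of the peptide transporter rose, and tapasin less so. Tap1 was at -1.72, -2.03 and -1.59 with gavage water and at 0.04, 0.04 and 0.27 with gavage cisplatin. With intravenous water it read -1.99, -1.97 and -0.60, and with intravenous cisplatin 0.37, 0.56 and -0.28. All cisplatin arrays were above all water arrays, the nearest pair being intravenous water replicate 3 and intravenous cisplatin replicate 3. The rise was 1.90 ± 0.35 (3.73-fold, limma adjusted p = 9.85e-04) and 1.74 ± 0.35 (3.33-fold, adjusted p = 0.00194), and the second Tap1 probe gave 1.68 ± 0.28 and 1.74 ± 0.28.

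Tap2, the other subunit of the transporter, read 0.37, 0.61 and 1.00 with gavage water and 1.72, 1.86 and 2.32 with gavage cisplatin. The intravenous animals read 0.73, 0.14 and 1.70 with water and 2.29, 2.02 and 1.77 with cisplatin, so the groups were separated by a narrow gap. Tap2 rose by 1.31 ± 0.35 after gavage (2.48-fold, limma adjusted p = 0.00822) and 1.17 ± 0.35 after injection (2.25-fold, adjusted p = 0.0153), and its second probe by 1.38 ± 0.31 and 1.25 ± 0.31. The intravenous call was lost without intravenous water replicate 2 (0.81, adjusted p = 0.0545) or intravenous cisplatin replicate 1 (1.04, adjusted p = 0.0525). Blocked on slide, where it rests on gavage cisplatin replicate 1 alone, the gavage difference was 1.06.

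Tapbp, the tapasin that bridges transporter and class I molecule, was at 0.33, 0.17 and 0.48 with gavage water and 1.03, 0.96 and 0.89 with gavage cisplatin. Intravenous water gave 0.63, 0.28 and -0.27, with replicate 3 the lowest here and not the highest, and intravenous cisplatin gave 1.13, 1.26 and 1.13. It rose 1.55-fold (0.63 ± 0.19, limma adjusted p = 0.0152) and 1.95-fold (0.96 ± 0.19, adjusted p = 0.00168). The gavage call was lost without gavage water replicate 2 (0.55, limma adjusted p = 0.0553). Blocked on slide, where it rests on gavage cisplatin replicate 1 alone, the gavage difference was 0.70.

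B2m, the light chain shared by all class I molecules, moved least. Its brightest probe read 7.66, 7.59 and 7.49 with gavage water and 7.55, 7.46 and 7.58 with gavage cisplatin, and the groups overlapped. It read 7.35, 7.48 and 7.41 with intravenous water and 7.67, 7.71 and 7.63 with intravenous cisplatin, which did not overlap. The differences were -0.05 ± 0.08 (limma adjusted p = 0.615) and 0.26 ± 0.08 (1.20-fold, adjusted p = 0.0161). Among the 5 B2m probes, 0 passed the test after gavage, with differences from -0.18 to 0.18, and 2 passed as higher after injection, the 5 lying between -0.04 and 0.28. The intravenous call was lost when its 5 probes were averaged (0.13, adjusted p = 0.166), with normexp background correction (0.19, adjusted p = 0.0523) and without intravenous water replicate 1 (0.23, adjusted p = 0.0615). The gavage direction turned with quantile normalization (0.23, adjusted p = 0.0308) and with spike-in scaling (0.61, adjusted p = 2.99e-04). Before scaling, the same probe read 180737 to 196782 intensity units on the gavage water arrays and 270321 to 278601 on the gavage cisplatin arrays. Over all 16 probes that could be tested, 8 passed as higher and 1 as lower after gavage (29.6% and 29.9% of all single probes) and 10 and 0 after injection (27.6% and 30.6%).

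**Figure D3:**
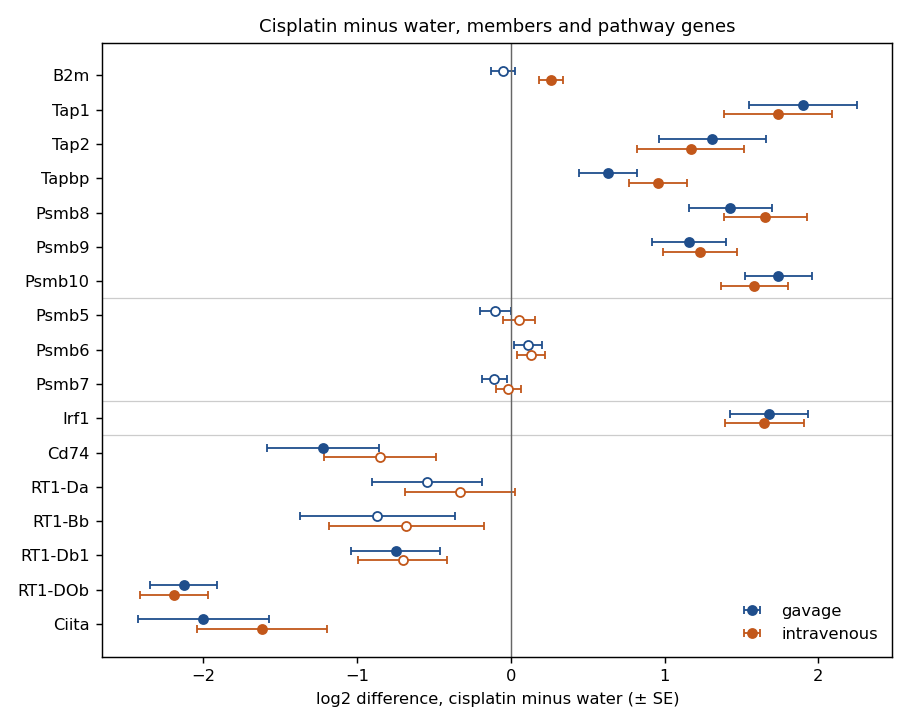
Difference between cisplatin and water (log2, points; bars, ± SE of the limma fit) for the 9 members tested and for partner genes, after gavage (blue) and intravenous injection (orange); filled points passed the test at an adjusted p under 0.05, open points did not. The TAP, tapasin and immunoproteasome genes lie to the right of 0 in both experiments, and Psmb5, Psmb6 and Psmb7 close to 0. Of class II, only Cd74, RT1-Da, RT1-Bb, RT1-Db1, RT1-DOb and Ciita are drawn, and these lie to the left on this scale. RT1-Da turns to 0.11 and 0.23 with spike-in scaling. The drawn genes are a selection: the class II list had 5 genes higher and 5 lower after gavage, and 3 and 7 after injection.

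The class II members ran the other way or did not pass. Cd74, the invariant chain that guides class II molecules to the peptide-loading compartment, read 5.46, 5.83 and 5.35 with gavage water and 4.02, 4.52 and 4.45 with gavage cisplatin. The groups did not overlap, and Cd74 fell 2.33-fold (-1.22 ± 0.37, limma adjusted p = 0.0153). That call was lost with quantile normalization (-0.94, adjusted p = 0.0552), with spike-in scaling (-0.56, adjusted p = 0.217), without gavage water replicate 2 (-1.08, adjusted p = 0.0539) and without gavage cisplatin replicate 1 (-1.06, adjusted p = 0.0545). In the intravenous experiment the values were 4.81, 5.66 and 5.70 with water and 3.65, 5.03 and 4.94 with cisplatin, which overlapped (-0.85 ± 0.37, adjusted p = 0.0685). There the difference passed without intravenous water replicate 1 (-1.14, adjusted p = 0.0295) or intravenous cisplatin replicate 2 (-1.10, adjusted p = 0.0400), and was -0.41 (adjusted p = 0.242) without intravenous cisplatin replicate 1.

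RT1-Da, the class II alpha chain, was at 3.13, 3.26 and 3.06 with gavage water and 2.33, 2.68 and 2.81 with gavage cisplatin, below it on every array. The intravenous values, 2.35, 3.21 and 3.58 with water and 1.93, 3.23 and 2.99 with cisplatin, overlapped over most of their range. Neither difference passed (-0.54 ± 0.36, limma adjusted p = 0.216, and -0.33 ± 0.36, adjusted p = 0.452), and the second probe gave -0.60 ± 0.36 and -0.32 ± 0.36. With spike-in scaling both directions turned, to 0.11 and 0.23, neither past the test, and without intravenous cisplatin replicate 1 the intravenous difference was 0.06 (limma adjusted p = 0.874). The gavage difference passed when only the gavage arrays entered the fit (adjusted p = 0.0205). Replicate 1 was the lowest array of its group in both intravenous groups, for Cd74 and for RT1-Da alike.

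Effects in the 2 experiments were set against each other directly. Of 9 members, 0 passed the test of the difference between the intravenous and the gavage effect (limma; 1 at an unadjusted p under 0.05), against 1.2% of all features (19.4% at an unadjusted p under 0.05). That background of 413 features rests on single arrays: it became 2572 without gavage cisplatin replicate 1 and 2283 without intravenous cisplatin replicate 1, and 0 to 3 without any other array. The 95% intervals of the members remained wide, from -0.62 to 1.08 around 0.23 for Psmb8, from -1.26 to 0.94 around -0.16 for Tap1, from -0.84 to 0.53 around -0.16 for Psmb10 and from -0.78 to 1.52 around 0.37 for Cd74. The member at an unadjusted p under 0.05 was B2m, with 0.31 (0.06 to 0.55, unadjusted p = 0.0190, adjusted p = 0.174). The intervals allow sizeable differences between the experiments and do not show that they were alike. Between the 2 water groups 0 of 9 members passed, as did 0% of all features (limma; 0 members and 14.1% of features at an unadjusted p under 0.05).

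Intravenous water replicate 3 stood apart from the other water animals in these genes. It lay above the mean of the other 2 intravenous water arrays by 1.39 in Tap1, 1.26 in Tap2, 1.13 in Psmb8, 1.04 in Psmb9 and 0.79 in Psmb10 (log2), and was the highest of all 6 water arrays in 6 of the 9 members. On that array Irf1, a transcription factor that interferon-gamma induces, was at 2.64, with 1.42 to 1.99 on the other water arrays, and the interferon-inducible GTPase Gbp2 was at 2.22, with 0.91 to 1.33 on the others. It also had 40 spots of uneven intensity and the lowest share of probes well above background, 66.1%. Without it, the intravenous rises were 2.20 for Tap1, 1.59 for Tap2, 0.72 for Tapbp, 2.03 for Psmb8, 1.58 for Psmb9, 1.85 for Psmb10 and 0.26 for B2m, and each of these 7 still passed (limma adjusted p from 2.91e-05 to 0.0416). Cd74 and RT1-Da then read -0.69 and -0.06, and neither passed.

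The rest of the class I machinery was followed in a list of 44 genes, most of them class I heavy chains of the RT1 family, of which 36 could be tested. With gavage cisplatin 17 were higher, 3 lower and 16 did not pass, and with intravenous cisplatin 19, 1 and 16 (limma), so that 47.2% and 52.8% were higher, beside 29.5% and 26.4% of all features. The list's median was 0.56 and 0.58, beside 0.01 and -0.06 over all features. With spike-in scaling 28 were higher and 1 lower after gavage, and 27 and 1 after injection, where 62.5% and 54.2% of all features were higher. Tapbpl, a relative of tapasin that edits peptides outside the loading complex, rose by 1.45 ± 0.11 and 1.08 ± 0.11. Psme1 and Psme2, which cap the proteasome as the activator PA28, rose by 0.41 ± 0.08 and 0.56 ± 0.11 after gavage and by 0.36 ± 0.08 and 0.63 ± 0.11 after injection. RT1-M3-1, a non-classical heavy chain, rose by 1.44 ± 0.19 and 1.32 ± 0.19.

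Classical heavy chains RT1-A1 and RT1-A2 also rose, RT1-A1 by 0.59 ± 0.13 and 0.57 ± 0.13 and RT1-A2 by 1.01 ± 0.26 and 1.08 ± 0.26, though the second RT1-A1 probe did not pass (0.43 ± 0.46 and 0.13 ± 0.46) and the second RT1-A2 probe passed after injection alone (0.71 ± 0.30 and 0.79 ± 0.30). RT1-CE13 rose by 0.83 ± 0.13 after gavage and 0.65 ± 0.13 after injection, and RT1-CE5 by 0.69 ± 0.13 and 0.91 ± 0.13. The heavy chain genes are near-identical copies and differ between animals of an outbred stock, so a probe named for one of them may read others, and single members of the family are uncertain. RT1-M5 fell by 0.69 ± 0.21 and 1.52 ± 0.21, the gavage value being -0.04 with spike-in scaling. Nlrc5, the class I transactivator, was not among the genes the array probes could be mapped to, and so has no value.

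The class II list gave calls in both directions, in shares near those of all features. Of 19 genes tested, 5 were higher and 5 lower with gavage cisplatin, and 3 higher and 7 lower with intravenous cisplatin (limma), with medians of -0.10 and -0.27. That is 26.3% each way after gavage, beside 29.5% higher and 29.8% lower over all features, and 15.8% higher and 36.8% lower after injection, beside 26.4% and 32%. With spike-in scaling the split was 10 higher and 3 lower after gavage and 8 and 1 after injection, where 62.5% and 54.2% of all features were higher and 9.62% and 9.3% lower. Ciita, the transactivator on which class II transcription depends, was at -2.05, -1.64 and -1.76 with gavage water and -4.10, -3.56 and -3.78 with gavage cisplatin. It read -2.17, -1.70 and -1.84 with intravenous water and -4.71, -2.62 and -3.23 with intravenous cisplatin, without overlap in either experiment. Ciita fell by 2.00 ± 0.42 (limma adjusted p = 0.0023) and by 1.61 ± 0.42 (adjusted p = 0.0082), and its second probe by 2.50 ± 0.38 and 1.49 ± 0.38. With spike-in scaling the intravenous fall was -1.05 (adjusted p = 0.0602).

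RT1-DOb, a chain of the DO molecule that restrains class II peptide exchange, fell by 2.13 ± 0.22 and 2.19 ± 0.22, the smallest p of the list. Of the class II beta chains, RT1-Bb was at -0.87 ± 0.50 and -0.68 ± 0.50 and did not pass, and RT1-Db1 was at -0.75 ± 0.29 (limma adjusted p = 0.0465, lower) and -0.70 ± 0.29 (adjusted p = 0.0594), the gavage call being lost with quantile normalization (-0.60) and spike-in scaling (-0.09). Of the 5 RT1-Db1 probes, 2 passed as lower after gavage and 0 after injection, where they ran from -0.80 to 0.65. RT1-Db2 was at -0.69 ± 0.28 (limma adjusted p = 0.0545) and -0.74 ± 0.28 (adjusted p = 0.0411, lower), the intravenous call being lost with quantile normalization (-0.70) and spike-in scaling (-0.18). RT1-DMa and RT1-DMb, which form the peptide exchange factor, did not pass, at 0.42 ± 0.28 and -0.09 ± 0.18 after gavage and 0.60 ± 0.28 and 0.17 ± 0.18 after injection. Members of the RFX complex, which binds class II promoters, moved in opposite directions: Rfxank fell by 1.14 ± 0.12 and 0.74 ± 0.12, and Rfx5 rose by 1.01 ± 0.25 and 1.47 ± 0.25, with Rfxank at -0.18 after injection under spike-in scaling. Among the list's higher genes was Cd40, a costimulatory receptor of antigen-presenting cells (0.89 ± 0.16 and 1.22 ± 0.16), and among its lower ones Lgmn, a lysosomal protease (-0.96 ± 0.16 and -0.45 ± 0.16), whose intravenous value turned to 0.11 with spike-in scaling.

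**Figure D4:**
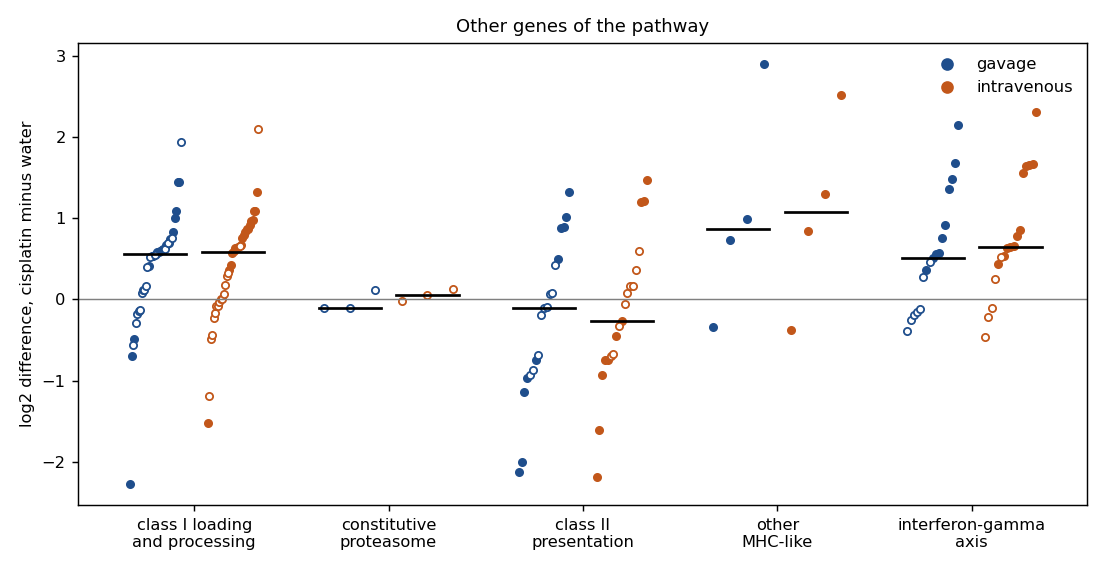
Difference between cisplatin and water (log2) for every tested gene of 5 lists, after gavage (blue, left of each pair) and intravenous injection (orange, right), ordered by size; filled points passed the limma test, open points did not, and the black line is the list's median. Medians are 0.56 and 0.58 for class I, -0.10 and -0.27 for class II and 0.51 and 0.64 for the interferon-gamma axis.

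Of the interferon-gamma axis, 17 of 18 genes could be tested; Ifng itself did not stand well above background on an array of any group. With gavage cisplatin 10 were higher (58.8%) and 0 lower, and with intravenous cisplatin 12 (70.6%) and 0 (limma), with medians of 0.51 and 0.64. Of all features, 29.5% were higher and 29.8% lower after gavage, and 26.4% and 32% after injection. Irf1 read 1.78, 1.60 and 1.99 with gavage water and 3.39, 3.51 and 3.51 with gavage cisplatin, and 1.42, 1.75 and 2.64 against 3.53, 3.74 and 3.49 after injection. Its rise was 1.68 ± 0.26 and 1.65 ± 0.26. The receptor chain Ifngr1 rose by 0.92 ± 0.12 and 0.65 ± 0.12, and the kinase Jak1, which the receptor engages, by 0.51 ± 0.07 and 0.53 ± 0.07. Cxcl10, a chemokine that attracts T cells, rose by 2.14 ± 0.35 and 2.31 ± 0.35, and Gbp5, an interferon-inducible GTPase, by 1.49 ± 0.29 and 1.64 ± 0.29. With normexp background correction 2 genes of this list passed as lower after gavage and 1 after injection.

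Among 4 tested MHC-like molecules and receptors, 3 were higher and 1 lower in each experiment. That is 75% and 25%, beside 29.5% and 29.8% of all features after gavage and 26.4% and 32% after injection. With spike-in scaling 4 were higher and 0 lower after gavage, and 3 and 0 after injection, where 62.5% and 54.2% of all features were higher. Procr, the endothelial protein C receptor, rose 7.46-fold and 5.73-fold, and Hfe, which regulates iron uptake, by 0.99 ± 0.19 and 1.30 ± 0.19. Cd1d1, which presents lipids, rose by 0.73 ± 0.12 and 0.84 ± 0.12. Fcgrt, the neonatal Fc receptor, which like class I pairs with B2m, was lower, at -0.34 ± 0.13 and -0.37 ± 0.13, and turned to 0.31 and 0.19 with spike-in scaling.

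The genes with the most similar profiles were found by the root mean square difference between log2 profiles over the 12 arrays, each centred on its own mean, across 12590 named genes. Nearest to Psmb8 were Trpv2 (0.146), a cation channel, Gbp2 (0.156) and the macrophage lysosomal protein Cd68 (0.181), where the median gene was at 0.889. Nearest to Tap1 were Irf1 (0.199), Trpv2 (0.210) and Cd68 (0.293), with a median of 1.04. Nearest to Cd74 were RT1-Bb (0.257), C4bpb (0.284), a chain of the complement regulator C4b-binding protein, and RT1-Db1 (0.291), with a median of 0.725. The profiles share arrays and scaling, so these distances are a description.

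Macrophage and general leukocyte markers were higher in both experiments, while the other immune cell lists were not higher throughout. Of 10 macrophage markers, 9 were higher with gavage cisplatin and 5 with intravenous cisplatin (limma), and 0 lower. That is 90% and 50% higher, beside 29.5% and 26.4% of all features. All marker counts are given at the main scaling alone. Their summed level, in multiples of the array's 75th percentile, was 19.0 to 21.8 with gavage water and 36.0 to 70.6 with gavage cisplatin, and 19.8 to 31.5 against 37.0 to 51.8 after injection. Cd163 was not well above background on any water array of either experiment and was at least 34.0-fold higher with gavage cisplatin and at least 6.99-fold higher with intravenous cisplatin. Among intravenous water animals, replicate 3 had the highest macrophage sum, 31.5, and an interferon-gamma axis sum of 36.8, with 26.8 to 29.4 on the other 5 water arrays.

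Other lists gave a different picture from that of macrophages. Of 10 T and NK cell markers, 0 passed after gavage (limma) and 5 were higher after injection (50%, beside 26.4% of all features). The sums after injection were 2.84, 6.41 and 6.31 for replicates 1 to 3 of the cisplatin group and 2.49 to 3.43 with water. The cisplatin animal with the low sum, replicate 1, is also the one with the lowest Cd74 and RT1-Da. Of 5 dendritic cell markers tested, 1, Batf3, was higher in each experiment (20%, beside 29.5% and 26.4% of all features). Xcr1 stood well above background on 0 of the 12 arrays. Dendritic cell sums ran from 1.07 to 1.42 with gavage water, 1.21 to 1.40 with gavage cisplatin, 1.07 to 1.28 with intravenous water and 1.13 to 2.12 with intravenous cisplatin. These sums mainly follow Cd83, with group means of -0.28 to 0.00, since the other tested markers lay at -2.07 or lower. Of 4 B cell markers tested, Cd22 was higher and Pax5 lower in each experiment, 25% each way and near the shares of all features. The defining Cd79b did not pass in either. B cell sums went from 1.78 to 1.94 with gavage water to 0.62 to 0.83 with cisplatin, and from 1.91 to 2.24 to 0.70 to 1.13 after injection. They mainly follow Pax5, with group means of -0.75 to 0.96, since the other tested markers lay at -3.32 or lower.

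General leukocyte markers were higher for 4 of 5 genes after gavage and 5 of 5 after injection (limma), beside 29.5% and 26.4% of all features. Their sums were 18.4 to 22.4 against 29.3 to 39.2 and 17.0 to 24.5 against 32.1 to 57.9. Tubule and endothelial markers moved the other way, where 29.8% and 32% of all features were lower. Of 7 proximal tubule markers 7 and 6 were lower, with sums of 1174 to 1325 against 73.2 to 171 after gavage and 1053 to 1233 against 127 to 445 after injection, and of 6 endothelial markers 4 and 3 were lower, with sums of 28.9 to 31.6 against 16.3 to 17.7 and 24.2 to 30.7 against 16.5 to 18.0. The part of these marker differences in the members' differences was not tested.

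**Figure D5:**
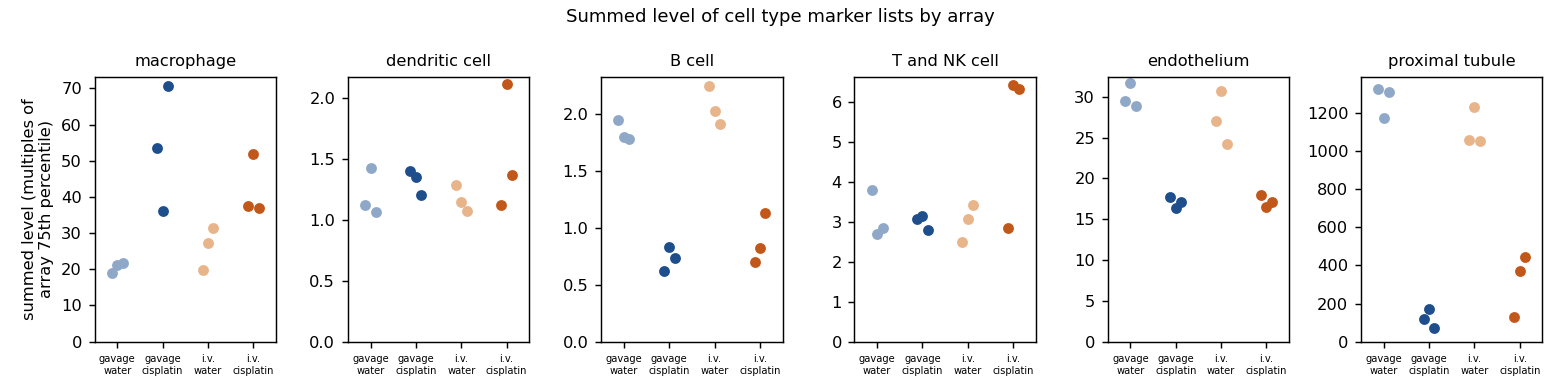
Summed level of 6 marker lists by array, in multiples of the array's 75th percentile (linear axes from 0; points, replicates 1 to 3 from left to right in each of 4 groups). Macrophage sums are higher and endothelial and proximal tubule sums lower on every cisplatin array than on the water arrays of the same experiment, and intravenous cisplatin replicates 2 and 3 have T and NK cell sums of 6.41 and 6.31.

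The arrays lay on 3 slides. All gavage water arrays and gavage cisplatin replicate 1 shared slide 1. Gavage cisplatin replicates 2 and 3 shared slide 2 with all intravenous water arrays. Slide 3 carried intravenous cisplatin alone. For the intravenous comparison slide and group cannot be told apart. With the slide as a block, the gavage difference rests on gavage cisplatin replicate 1 alone, the only cisplatin array on the slide of the gavage water arrays. On that array the rises were 1.82 for Tap1, 1.47 for Psmb8, 1.14 for Psmb9 and 1.56 for Psmb10. Cd74 was at -1.53 there, its lowest gavage cisplatin array. These values come from a single cisplatin animal and do not show that the differences hold apart from the slide.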

How the data were processed

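The 10 members and the gene lists were chosen with earlier results of these data known, so neither is independent of them. The authors scanned 12 arrays and extracted spots in Agilent Feature Extraction, as version 10.7 per the submitters' processing notes and 10.7.1.1 in the file headers. The processed spot intensity, background-subtracted per the file headers and not normalized between arrays, was used, with the deposited median intensity of spot and local background for an alternative. The authors' deposited value table is a ratio, each processed intensity over the 75th percentile of its array, found by matching it to the scanner values (column medians 0.109 to 0.121), and served as another alternative.

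Probes were named by transcript accession through RefSeq genes of the GRCr8 assembly: 28206 of 61537 had 1 symbol and 33331 none. The array design is of rn4, so no position on it was used. Values were log2 of the processed intensity minus the log2 75th percentile of the array, with 82 uneven spots left out. A named gene was represented by its probe with the highest mean over the 12 arrays (9036 genes had several), and an unnamed probe stood alone. A feature was tested if 1 group or more had it well above background on each of its 3 arrays (34444 of 48976). limma 3.58.1 in R 4.3.3 fitted 4 group means (8 residual degrees of freedom, 2.09 prior), with Benjamini-Hochberg adjustment over all features and a threshold of 0.05. A bound ("at least") sets the bright group's mean against, per dim array, the higher of its own value and the lowest signal among probes well above background. The fit was tested on simulated data. Named genes were every member; up to 4 called genes with the smallest p per list and experiment; and a set of partner genes, of which some are not reported here. Cd163, Cd79b, Cd22, Pax5, Batf3, Cd83, RT1-Db2 and Gbp2 were singled out after their values were seen. So were Calr, Canx, Pdia3, Psme3, Hspa5, Pomp and Sec61a1. The labels call the animals biological replicates.

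Alternatives were normexp background correction (on the median spot signal, the signal used here), quantile normalization, scaling to spike-in probes, no filter on dim probes, the mean of all probes, slide as a fixed or random block, a replicate block, the arrays of 1 experiment alone, the deposited ratios and leaving out each array.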

Additional observations from a re-analysis of the deposited data

How the results depend on the processing

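The Tap1, Psmb8, Psmb9 and Psmb10 rises kept their direction and passed in both experiments under every alternative run; over all members and comparisons, 694 of 747 values kept direction and side of the threshold, 33 changed sign without passing before or after, 13 no longer passed, 5 newly passed and 2, both B2m after gavage, reversed (0.23 with quantile normalization, 0.61 with spike-in scaling). The count of members lower after gavage (1) was 0 with quantile normalization and spike-in scaling and 2 with the replicate block or the arrays of the experiment alone, and 0 to 1 leaving out 1 array. After injection (0) it was 1 with no filter (RT1-Ba) and with the replicate block, and 0 to 1 leaving out 1 array. Members higher numbered 4 to 7 after gavage and 6 to 7 after injection. The median of all features moved after gavage to -0.13 with normexp, 0.66 with spike-in scaling and -0.12 with no filter, after injection to 0.50 with spike-in scaling and -0.16 with no filter, and between water groups to 0.14 with spike-in scaling. Features differing between the experiments (413) were 641 with normexp, 250 with quantile normalization, 0 with spike-in scaling, 0 with no filter, 637 with the random slide block and 0 with the replicate block, and 0 to 2572 leaving out 1 array. Features differing between water groups (0) were 8 with normexp and 6 with the fixed slide block, and 0 to 1180 leaving out 1 array, the highest without gavage cisplatin replicate 1. Other causes were not tested. Replicate numbers do not pair animals: deviations of same-numbered arrays correlated at -0.09, 0.06 and -0.04 (gavage) and -0.03, 0.01 and -0.11 (intravenous), and 1 of 3 and 0 of 3 correlated best with their own number. With the replicate block, 18789 and 18333 features passed (20430 and 20107 without); RT1-Da after gavage (-0.54, limma adjusted p = 0.0300) and Cd74 after injection (-0.85, adjusted p = 0.00583) passed as lower, and B2m after injection (0.26, adjusted p = 0.0589) did not. The fixed slide block sets gavage cisplatin replicate 1 alone against gavage water. It cannot estimate the intravenous comparison or the difference between experiments, nor can the replicate block estimate that of the water groups.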
